A study of Mus musculus with 8 samples.

Results

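The 9 genes described here, *Cnot3*, *Eps8l1*, *Gm45844*, *Zfp446*, *Mzf1*, *Sae1*, *Arhgap35*, *Slc1a5* and *Ccdc61*, lie on proximal chromosome 7 within 20 Mb of *Apoe*. They were picked from these same libraries because their counts differed between *ApoE-/-* and WT aortas. They are 9 of 21859 gene identifiers in the count tables and 9 of 392 genes of that stretch that were tested. All 9 were among the 15077 genes kept by the filter on low counts, so none of them was lost. Total RNA of whole aorta was sequenced from 4 *ApoE-/-* mice, which lack apolipoprotein E and develop atherosclerosis, and from 4 WT mice of the C57BL/6 background, with 1 library from each mouse. All 8 animals were males, 40 weeks old and kept on a normal diet, so genotype was the only labelled difference between the groups. The *Apoe* deletion is present in every cell of the knockout mice from birth, and the aortas were taken whole, so in these libraries fewer cells of a type and less RNA per cell cannot be told apart.

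*Apoe* was inactivated by gene targeting in embryonic stem cells of 129 origin, and the mutant allele was then moved to C57BL/6 by backcrossing. In such a line, chromosome flanking a targeted gene can be retained from the donor strain, and genes within it are called passengers because any donor allele of theirs travels with the mutation. The count tables hold no base calls, so whether the 9 genes carried donor alleles in these mice was not tested, and they are called candidates only for their position and their difference.

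The 9 genes belong to unlike functions. *Slc1a5* encodes a neutral amino acid transporter that takes up glutamine, *Sae1* a subunit of the enzyme that activates SUMO, *Cnot3* a subunit of the CCR4-NOT complex that shortens mRNA tails, and *Arhgap35* the GTPase-activating protein p190A. *Eps8l1* is a relative of the actin regulator *Eps8*, *Ccdc61* encodes a coiled-coil protein of centrioles and basal bodies, and *Mzf1* and *Zfp446* encode zinc finger proteins with a SCAN domain. *Gm45844* is a predicted protein-coding gene with no assigned name.

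*Gm45844* and a vomeronasal receptor gene, *Vmn2r29*, share exons on the same strand. The first coding stretch of 3 of the 4 coding transcripts of *Gm45844* lies in an exon at chr7:7239980-7240150 on the minus strand of GRCm38, is 171 bases long and is contained whole in a transcript of *Vmn2r29*. It is shown because read pairs that fall in it could come from either gene, and may then be counted for neither. The capitals mark its start codon.

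*Gm45844*: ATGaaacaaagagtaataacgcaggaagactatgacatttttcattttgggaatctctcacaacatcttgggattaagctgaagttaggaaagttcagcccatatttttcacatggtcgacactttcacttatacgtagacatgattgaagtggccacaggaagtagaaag

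Promoters of 250 bases before to 50 bases after a transcript start were available from RefSeq (GRCm38.p6) for 5 of the 9 genes, as 8 promoters. Those of *Arhgap35*, which was higher in *ApoE-/-* aortas, and *Ccdc61*, which was lower and is the nearest of the 9 to *Apoe*, are shown because they stand for each direction of difference and differ most plainly in base composition. Both lie on the minus strand, *Arhgap35* at chr7:16614944-16615243 and *Ccdc61* at chr7:18910355-18910654. Capitals mark the GC box, the letters GGGCGG on either strand.

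*Arhgap35*: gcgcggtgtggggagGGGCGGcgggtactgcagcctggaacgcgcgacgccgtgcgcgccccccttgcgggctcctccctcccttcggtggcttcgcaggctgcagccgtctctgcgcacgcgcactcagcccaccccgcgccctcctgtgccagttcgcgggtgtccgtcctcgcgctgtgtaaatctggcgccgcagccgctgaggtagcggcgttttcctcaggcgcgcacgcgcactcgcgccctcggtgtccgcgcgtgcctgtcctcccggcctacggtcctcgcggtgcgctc

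*Ccdc61*: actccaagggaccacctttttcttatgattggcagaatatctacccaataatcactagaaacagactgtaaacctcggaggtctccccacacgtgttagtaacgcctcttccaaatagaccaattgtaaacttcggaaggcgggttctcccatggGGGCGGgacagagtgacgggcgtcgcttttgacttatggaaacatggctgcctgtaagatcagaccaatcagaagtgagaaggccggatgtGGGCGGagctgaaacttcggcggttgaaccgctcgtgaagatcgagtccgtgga

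The *Arhgap35* promoter held 45 CpG dinucleotides, more than 98.1% of 32851 promoters of the same length, and its GC content was 74%. The *Ccdc61* promoter held 17 CpG dinucleotides and had a GC content of 51%, beside a median of 7 CpG dinucleotides and 52.7% GC over all promoters. The promoter of *Ccdc61* held 2 GC boxes, those of *Arhgap35* and *Cnot3* and each of the 3 of *Eps8l1* held 1, and neither of *Mzf1* held any, and 35.7% of all promoters held one. The letters CACGTG, an E box, occurred in the *Ccdc61* promoter alone of the 8 and in 7.15% of all promoters. The letters TATAAA and AGTGGGGA, the latter a core motif of MZF1, were in none of the 8 promoters, and on either strand they were in 13.6% and 1.82% of all promoters. These matches are descriptions of the letters and were compared with no expression value.

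Between 18375898 and 23940156 read pairs per library were counted on genes, with more in *ApoE-/-* libraries (23240995 to 23940156) than in WT libraries (18375898 to 21664598). Values are given as CPM, that is counts scaled to a common library size, here with the trimmed mean of M-values (TMM). *Apoe* itself was at 14.7 to 36.3 CPM in *ApoE-/-* libraries and at 536 to 857 CPM in WT libraries, as the labels require. *ApoE-/-* replicate 1 stood apart from the others, with correlations of log2 CPM of 0.849 to 0.903 with the other *ApoE-/-* libraries, which among themselves gave 0.951 to 0.971. The 4 WT libraries gave 0.979 to 0.989 among themselves. The log2 fold change of each member is therefore also given without it.

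Of the 9 genes, 7 were lower and 2 were higher in *ApoE-/-* aortas, and in none did the 4 libraries of one genotype overlap those of the other. Of all 15077 genes tested, 8.71% had genotypes that did not overlap. The edgeR quasi-likelihood test with Benjamini-Hochberg adjustment called 3 of the 9 (*Gm45844*, *Slc1a5* and *Ccdc61*) at an adjusted p under 0.05, beside 0.464% of all genes, and DESeq2 called all 9, beside 4.29% of all genes. Without *ApoE-/-* replicate 1, edgeR called 4 of the 9, *Sae1* being added, beside 3.91% of all genes. Without *ApoE-/-* replicate 2 it called 1 (*Gm45844*), beside 0.112% of all genes. Without any other single library it called 0 of the 9, beside 0% to 0.0132% of all genes. Since the 9 genes were selected on this contrast, these counts describe the selection, and their levels are given below without tests.

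**Figure D1:**
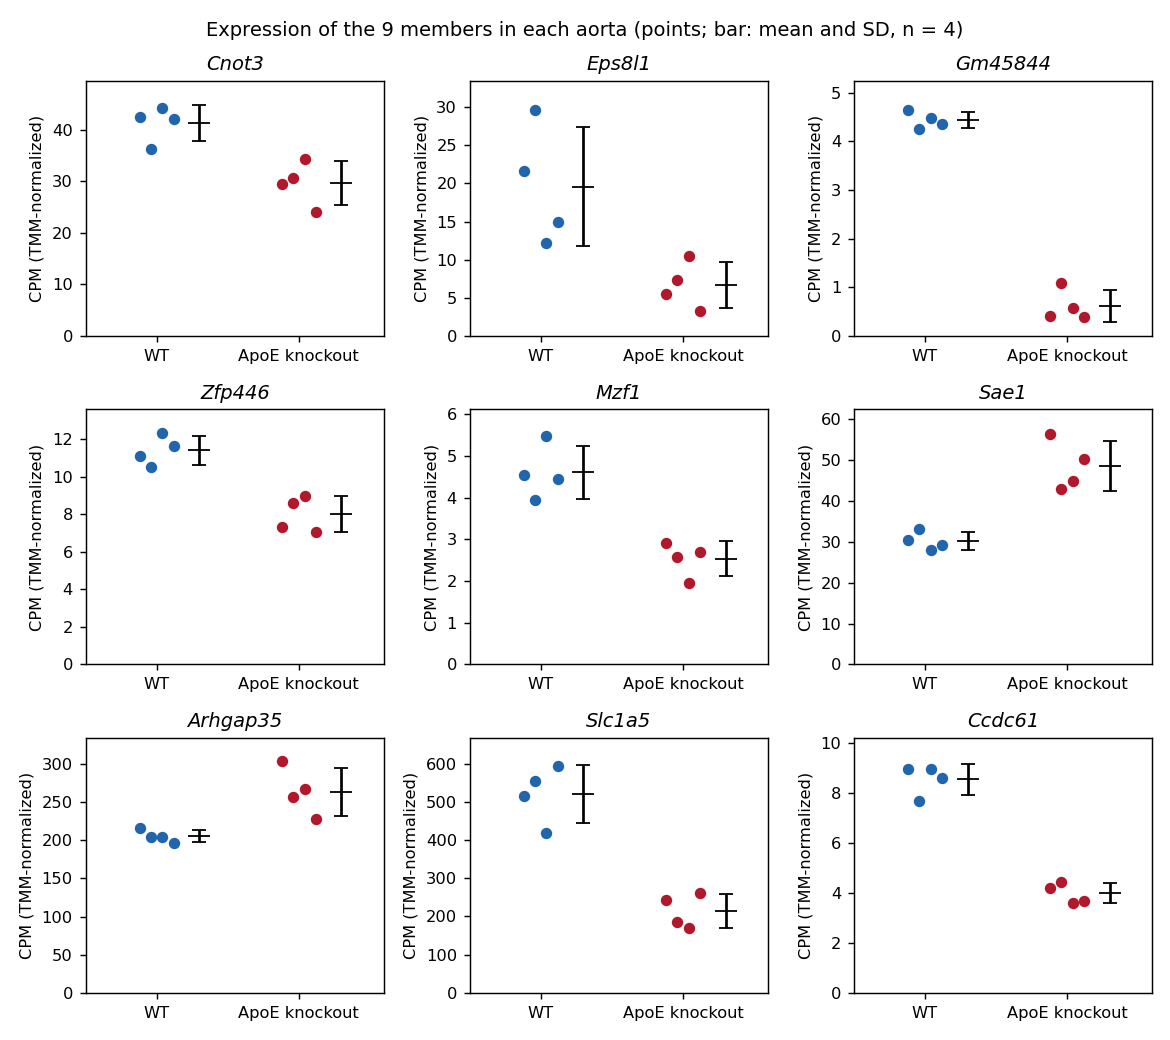
TMM-normalized CPM of the 9 genes in each of the 4 WT (blue) and 4 *ApoE-/-* (red) aortas, with the mean and SD of each group beside the points and every axis starting at 0. In all 9 panels the groups are separate, with *Sae1* and *Arhgap35* higher and the other 7 lower in *ApoE-/-* aortas, and *Eps8l1* shows the widest spread.

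*Slc1a5* (ENSMUSG00000001918.17, chromosome 7, 16781340 to 16798274, plus strand) had the highest level of the 9 per kilobase of exon in both genotypes. Its *ApoE-/-* libraries 1 to 4 were at 244, 185, 170 and 261 CPM, and its WT libraries 1 to 4 at 514, 556, 419 and 594 CPM. The lowest WT library was above the highest *ApoE-/-* library by a factor of 1.603. Mean expression was 215 ± 44.2 CPM (SD, n = 4) in *ApoE-/-* and 521 ± 75.5 CPM in WT aortas, which left 41.3% of the WT level and a log2 fold change of -1.28 (SE 0.19). Without *ApoE-/-* replicate 1 it was -1.34. The counts behind these values ran from 3901 to 12415 per library.

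Per kilobase of exon, *Slc1a5* stood at 125 CPM per kb in WT aortas, above *Arhgap35* at 22.4, *Sae1* at 11.6 and *Cnot3* at 5.79 CPM per kb, with no overlap between neighbours in this order. *Eps8l1* at 3.24 and *Ccdc61* at 3.13 CPM per kb overlapped, *Zfp446* followed at 1.59, and *Gm45844* at 0.663 and *Mzf1* at 0.556 CPM per kb overlapped. In *ApoE-/-* aortas *Slc1a5* was still first, at 51.5 CPM per kb, and *Arhgap35* second, at 28.8 CPM per kb. *Gm45844* was last there, at 0.0918 CPM per kb, and did not overlap *Mzf1* at 0.307 CPM per kb. *Eps8l1* moved from the fifth to the seventh place, at 1.10 CPM per kb, and overlapped *Zfp446* at 1.11 CPM per kb.

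*Sae1* (ENSMUSG00000052833.9, 16320234 to 16387806, minus strand) was 1 of the 2 genes that were higher in *ApoE-/-* aortas. It was at 56.3, 42.9, 44.9 and 50.2 CPM in *ApoE-/-* libraries 1 to 4 and at 30.5, 33.2, 28.1 and 29.2 CPM in WT libraries 1 to 4. Every *ApoE-/-* library was above every WT library, and the highest of all was *ApoE-/-* replicate 1. The means of 48.6 ± 6.03 and 30.2 ± 2.20 CPM (SD, n = 4) gave a 1.61-fold higher level and a log2 fold change of 0.68 (SE 0.11), or 0.61 without *ApoE-/-* replicate 1.

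*Arhgap35* (ENSMUSG00000058230.12, 16493719 to 16614993, minus strand) starts 173 kb from the start of *Sae1* and showed the smallest difference of the 9. Its *ApoE-/-* libraries were at 304, 256, 266 and 228 CPM and its WT libraries at 216, 205, 205 and 196 CPM. The groups were separate by a narrow margin, the lowest *ApoE-/-* library being above the highest WT library by a factor of 1.05. Mean expression was 264 ± 31.3 and 205 ± 8.30 CPM (SD, n = 4), a 1.28-fold higher level and a log2 fold change of 0.36 (SE 0.12), or 0.29 without *ApoE-/-* replicate 1.

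*Ccdc61* (ENSMUSG00000074358.9, 18890883 to 18910415, minus strand) is the nearest of the 9 to *Apoe*, at 0.805 Mb. It had 104, 102, 83 and 85 counts in *ApoE-/-* libraries 1 to 4 and 196, 164, 162 and 180 counts in WT libraries 1 to 4. In CPM these were 4.22, 4.46, 3.62 and 3.69 against 8.996, 7.68, 8.97 and 8.62, so the groups were well separate and the lowest WT library was above the highest *ApoE-/-* library by a factor of 1.72. Means of 4.00 ± 0.410 and 8.57 ± 0.618 CPM (SD, n = 4) left 46.7% of the WT level, a log2 fold change of -1.10 (SE 0.14). The value without *ApoE-/-* replicate 1 was -1.12.

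*Gm45844* (ENSMUSG00000110105.1, 7213017 to 7278289, minus strand) had the largest difference of the 9. It had 10, 25, 13 and 9 counts in *ApoE-/-* libraries 1 to 4 and 101, 91, 81 and 91 counts in WT libraries 1 to 4. The exact Poisson 95% interval, which covers counting error only, ran from 4.12 to 17.1 around the lowest of these counts and from 16.2 to 36.9 around the highest *ApoE-/-* count, and no interval of an *ApoE-/-* library reached that of a WT library, the lowest of which began at 64.3. In CPM the *ApoE-/-* libraries were at 0.406, 1.09, 0.566 and 0.391 and the WT libraries at 4.64, 4.26, 4.49 and 4.36. *ApoE-/-* replicate 2 was the highest of its group and the WT libraries lay close together, with a coefficient of variation of 3.68% beside 53.6% in *ApoE-/-* libraries. Means of 0.614 ± 0.329 and 4.43 ± 0.163 CPM (SD, n = 4) left 13.9% of the WT level, a log2 fold change of -2.84 (SE 0.35). This was -2.69 without *ApoE-/-* replicate 1 and -3.27 without *ApoE-/-* replicate 2.

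The exons of *Gm45844* overlap those of *Vmn2r29* over 2228 bases, or 33.3% of the exonic length of *Gm45844*, and 4459 of its exonic bases lie outside *Vmn2r29*. *Vmn2r29* had 1, 7, 5 and 7 counts in *ApoE-/-* libraries and 8, 11, 18 and 5 counts in WT libraries, too few to pass the filter. Of 6778 stretches of 50 bases in the *Gm45844* transcripts, 2891 (42.7%) were also present on the same strand in a transcript of another gene, of 77 other genes in all, and 2135 (31.5%) were in *Vmn2r29*. Read pairs that were ambiguous between genes or not uniquely placed were kept apart by the counting and are in no gene's count. How much of the exons of *Gm45844* could be counted is therefore uncertain, and the part of this in the difference was not tested.

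*Mzf1* (ENSMUSG00000030380.17, 13042303 to 13054764, minus strand) and *Zfp446* (ENSMUSG00000033961.16, 12977848 to 12985714, plus strand), both SCAN-domain zinc finger genes, start 64.5 kb apart and were both lower. *Mzf1* was at 2.92, 2.58, 1.96 and 2.69 CPM in *ApoE-/-* libraries and at 4.54, 3.93, 5.48 and 4.45 CPM in WT libraries. *Zfp446* was at 7.31, 8.62, 8.97 and 7.03 CPM in *ApoE-/-* libraries and at 11.1, 10.5, 12.3 and 11.6 CPM in WT libraries. In both genes all WT libraries were above all *ApoE-/-* libraries, and WT replicate 3 was the highest. *Mzf1* averaged 2.54 ± 0.411 and 4.60 ± 0.647 CPM (SD, n = 4), 55.2% of the WT level, with a log2 fold change of -0.86 (SE 0.20). *Zfp446* averaged 7.98 ± 0.957 and 11.4 ± 0.753 CPM, 70.1% of the WT level, with a log2 fold change of -0.51 (SE 0.13). Without *ApoE-/-* replicate 1 the log2 fold changes were -0.93 for *Mzf1* and -0.47 for *Zfp446*. The 4 tested genes between them, *Trim28*, *Zbtb45*, *Chmp2a* and *Ube2m*, had log2 fold changes of -0.11 to 0.23 and none was called by edgeR.

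*Cnot3* (ENSMUSG00000035632.16, 3645268 to 3661109, plus strand) is the farthest of the 9 from *Apoe*, at 16.05 Mb. It was at 29.5, 30.7, 34.4 and 24.1 CPM in *ApoE-/-* libraries and at 42.4, 36.2, 44.3 and 42.1 CPM in WT libraries. *ApoE-/-* replicate 3 and WT replicate 2 nearly met, the WT library being above the *ApoE-/-* library by a factor of 1.05. Means of 29.7 ± 4.24 and 41.2 ± 3.51 CPM (SD, n = 4) left 71.9% of the WT level, a log2 fold change of -0.48 (SE 0.13), or -0.47 without *ApoE-/-* replicate 1. Of its 7318 stretches of 50 bases, 646 (8.83%) were present on the same strand in transcripts of other genes, 601 of them in the processed pseudogene *Gm9207*. On the opposite strand its exons overlap those of *Leng1* over 433 bases, and *Leng1* had a log2 fold change of -0.27 (edgeR adjusted p = 0.595).

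*Eps8l1* (ENSMUSG00000006154.13, 4460674 to 4480487, plus strand) varied most within both genotypes apart from *Gm45844* in *ApoE-/-* libraries. It was at 5.56, 7.30, 10.5 and 3.30 CPM in *ApoE-/-* libraries and at 21.6, 29.6, 12.2 and 14.9 CPM in WT libraries. *ApoE-/-* replicate 3, the highest of its group, and WT replicate 3, the lowest of its group, were close, with a factor of 1.16 between them. The coefficients of variation were 45.6% in *ApoE-/-* and 39.8% in WT libraries. Means of 6.67 ± 3.04 and 19.6 ± 7.78 CPM (SD, n = 4) left 34.0% of the WT level, a log2 fold change of -1.55 (SE 0.40), or -1.47 without *ApoE-/-* replicate 1.

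Ranked by size, 4 of the 9 differences were over 2-fold (*Gm45844*, *Eps8l1*, *Slc1a5* and *Ccdc61*), 2 more (*Mzf1* and *Sae1*) were over 1.5-fold, and *Zfp446*, *Cnot3* and *Arhgap35* were below. No limit was stated when the 9 were picked. By DESeq2's adjusted p, *Cnot3* (0.0345) and *Arhgap35* (0.0415) were the members nearest to the threshold, and just outside it in the same stretch were *Zfp940* (0.0536), *Fxyd5* (0.0566), *Inafm1* (0.0592) and *Relb* (0.0595), with log2 fold changes of 0.64, 0.58, -0.42 and 0.51. A further 24 of 440 genes of the stretch that DESeq2 tested, *Apoe* among them, were past this threshold and are not among the 9. By edgeR's adjusted p, *Sae1* and the non-members *Cd22* and *Bcl3* (0.0526 for each) were nearest outside.

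**Figure D2:**
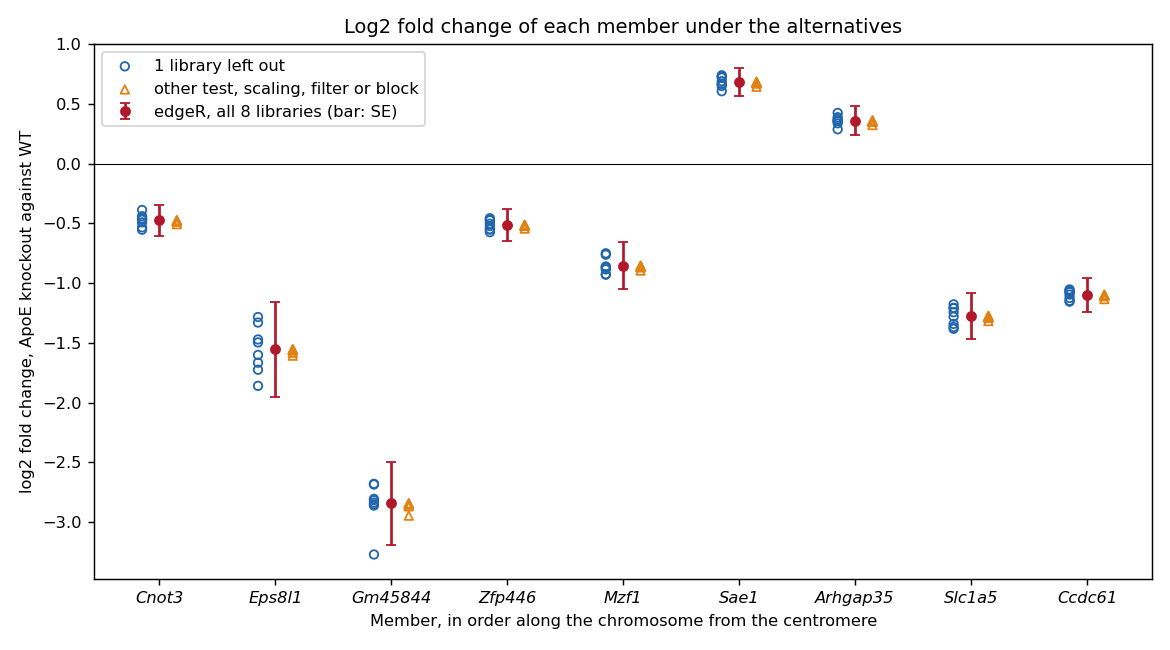
Log2 fold change (*ApoE-/-* against WT) of each of the 9 genes with all 8 libraries (red, bar: SE), with 1 library left out in turn (blue circles) and with another test, scaling, filter or block (orange triangles). None of the values changed sign, and the lowest *Gm45844* value, at -3.27, is the 1 without *ApoE-/-* replicate 2.

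Along the chromosome, all 9 genes lie on the centromeric side of *Apoe*, which starts at 19696109, and none on the telomeric side. On the centromeric side 168 genes were tested and on the telomeric side 223. With the 9 genes included, which were picked for this contrast, edgeR called 4 of 168 genes (2.38%) on the centromeric side, DESeq2 18 of 161 (11.2%), and genotypes did not overlap in 32 of 168 (19.0%). With the 9 genes set apart, edgeR called 1 of 159 genes (0.629%) on the centromeric side and 1 of 223 (0.448%) on the telomeric side, beside 4 of 768 (0.521%) on the rest of chromosome 7 and 60 of 13910 (0.431%) on the other chromosomes. DESeq2 called 9 of 152 (5.92%) and 12 of 215 (5.58%) on the respective sides, 30 of 737 (4.07%) on the rest of chromosome 7 and 622 of 13453 (4.62%) on the other chromosomes, counted among the genes that both tools tested. Genotypes did not overlap for 23 of 159 genes (14.5%) on the centromeric side, 22 of 223 (9.87%) on the telomeric side and 64 of 768 (8.33%) on the rest of chromosome 7. These shares were not compared by a test, and neighbouring genes are not independent.

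Among the other genes of the stretch, *Lair1*, an inhibitory receptor of leukocytes, and *Pou2f2*, a transcription factor of B cells, both rose, with log2 fold changes of 2.32 (SE 0.34) and 1.66 (SE 0.25, edgeR adjusted p = 0.0396 for both). *Cd22*, a B cell lectin, and *Bcl3*, a regulator of NF-kB, had log2 fold changes of 2.65 (SE 0.45) and 1.35 (SE 0.23, edgeR adjusted p = 0.0526 for both). *Apoe* had a log2 fold change of -4.83 (SE 0.37). Of the 3 genes that edgeR called here besides the members, *Apoe*, *Lair1* and *Pou2f2*, at most 1 was called with a replicate block or without *ApoE-/-* replicate 3 or 4 or any 1 WT library. Besides *Apoe* and the members, *Lair1*, *Pou2f2*, *Cd22* and *Bcl3* were the genes of the stretch with the smallest p, and all 4 had higher values in *ApoE-/-* aortas.

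**Figure D3:**
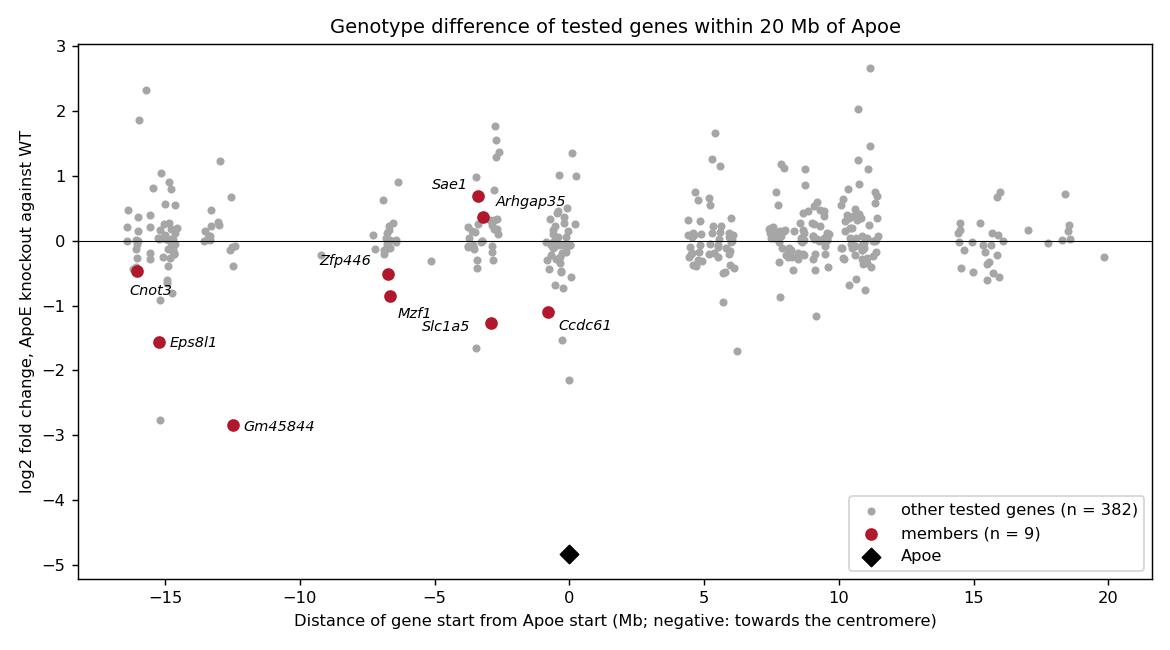
Log2 fold change (*ApoE-/-* against WT) of the 392 tested genes within 20 Mb of *Apoe* against the distance of their start from that of *Apoe* in Mb, negative towards the centromere. The 9 members (red) all lie to the left of *Apoe* (black diamond), from -16.05 Mb for *Cnot3* to -0.805 Mb for *Ccdc61*. Other genes of that side differ as well, up to 2.32 for *Lair1* and down to -2.77 for *Tnni3*.

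The nearest tested genes on either side of each member were 17 in all. EdgeR and DESeq2 called 0 of these 17, beside 0.464% and 4.29% of all genes, and genotypes did not overlap in 2, among them *Zfp772* next to *Gm45844* (log2 fold change -0.39, SE 0.15), beside 8.71% of all genes. Over all genes, 1713 had an unadjusted edgeR p under 0.05. The neighbours' log2 fold changes ran from -0.44 for *Nova2* to 0.31 for *Ap2s1*, with 9 lower and 8 higher. Their median absolute log2 fold change was 0.161, beside 0.174 over all genes and 0.857 for the members, which were picked for theirs. *Ap2s1*, a subunit of the clathrin adaptor AP2, lies between *Arhgap35* and *Slc1a5*. The latter 2 differed in opposite directions, and their starts are 288 kb apart. Between *Sae1* and *Arhgap35* the 3 tested genes *Zc3h4*, *Tmem160* and *Npas1* had log2 fold changes of -0.02 to -0.01. Between *Cnot3* and *Eps8l1*, whose starts are 815 kb apart, 13 tested genes ran from -0.29 to 2.32 for *Lair1*, which edgeR called. DESeq2 called *Lair1* and *Pirb*, a receptor of myeloid cells.

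Genes that work with the products of the members, or are related to them, were listed by function in 7 lists of 142 tested genes. EdgeR called 1 of the 142 (0.704%, beside 0.464% of all genes) and DESeq2 6 (4.23%, beside 4.69% of the genes that both tools tested), and genotypes did not overlap in 8 (5.63%, beside 8.71%). The median log2 fold change of the 142 was -0.02, and 12 had an unadjusted edgeR p under 0.05. Only 4 of them lie within 20 Mb of *Apoe*.

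The called gene was *Slc7a11*, the cystine-glutamate exchanger, in the list of amino acid transport and glutamine use to which *Slc1a5* belongs. It rose from 0.262 ± 0.102 CPM (SD, n = 4) in WT to 2.31 ± 1.34 CPM in *ApoE-/-* aortas, or by 3.10 on the log2 scale (SE 0.49; adjusted p = 0.0462 in edgeR), but was not called when at least 10 counts were asked of every library, with a replicate block, or on leaving out any 1 library other than *ApoE-/-* replicate 1. *Slc1a4*, the nearest relative of *Slc1a5* and a transporter of small neutral amino acids, was at 34.3 ± 10.3 CPM in *ApoE-/-* and 18.3 ± 2.32 CPM in WT aortas, with a log2 fold change of 0.91 (SE 0.22; adjusted p = 0.113 in edgeR), a value opposite in sign to that of *Slc1a5*. Of the 29 tested genes of this list 17 were higher and 12 lower, with a median of 0.09, and DESeq2 called *Slc7a11*, *Slc1a4* and *Slc7a7*.

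*Uba2*, whose product forms the SUMO-activating enzyme together with that of *Sae1*, lies 14.4 Mb telomeric of *Apoe*. It was at 131 ± 21.7 CPM (SD, n = 4) in *ApoE-/-* and 133 ± 19.1 CPM in WT aortas, a log2 fold change of -0.02 (SE 0.15). Neither test called any of the 19 genes of the SUMO pathway, of which 5 were higher and 14 lower with a median of -0.04. *Sumo2* (-0.42, SE 0.20) and *Senp5* (0.14, SE 0.11) had the smallest p.

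Of the 18 CCR4-NOT and deadenylation genes set beside *Cnot3*, 4 were higher and 14 lower, with a median log2 fold change of -0.03. EdgeR called none of the 18 and DESeq2 called *Tob1*, an adaptor of the complex, at -0.77 on the log2 scale (SE 0.14; adjusted p = 0.0634 in edgeR). *Tob2*, its relative, was at -0.42 (SE 0.14). *Arhgap5*, the closest paralog of *Arhgap35*, had a log2 fold change of -0.04 (SE 0.13).

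The *Eps8* family and its partners (10 genes), the centriole and basal body genes (19 genes) and the SCAN-domain zinc finger genes (26 genes) held no gene called by edgeR or DESeq2. *Eps8*, *Eps8l2* and *Eps8l3*, the other members of the *Eps8* family, had log2 fold changes of 0.14 (SE 0.16), -0.20 (SE 0.15) and 0.42 (SE 0.43) beside -1.55 for *Eps8l1*. In that list *Abi2* (0.27) and *Baiap2* (0.22) had the smallest p, and in the centriole list, whose median was 0.00, *Nin* (0.23) and *Cep170* (0.22). Of the SCAN-domain genes 8 were higher and 18 lower, with a median of -0.10, led by *Zkscan3* (-0.45, SE 0.16) and *Zkscan7* (-0.22, SE 0.11). *Zscan18* (0.63, SE 0.35) and *Zscan22* (-0.14, SE 0.16) lie close to *Zfp446* and *Mzf1*, at 6.93 and 6.80 Mb from *Apoe* on the centromeric side.

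**Figure D4:**
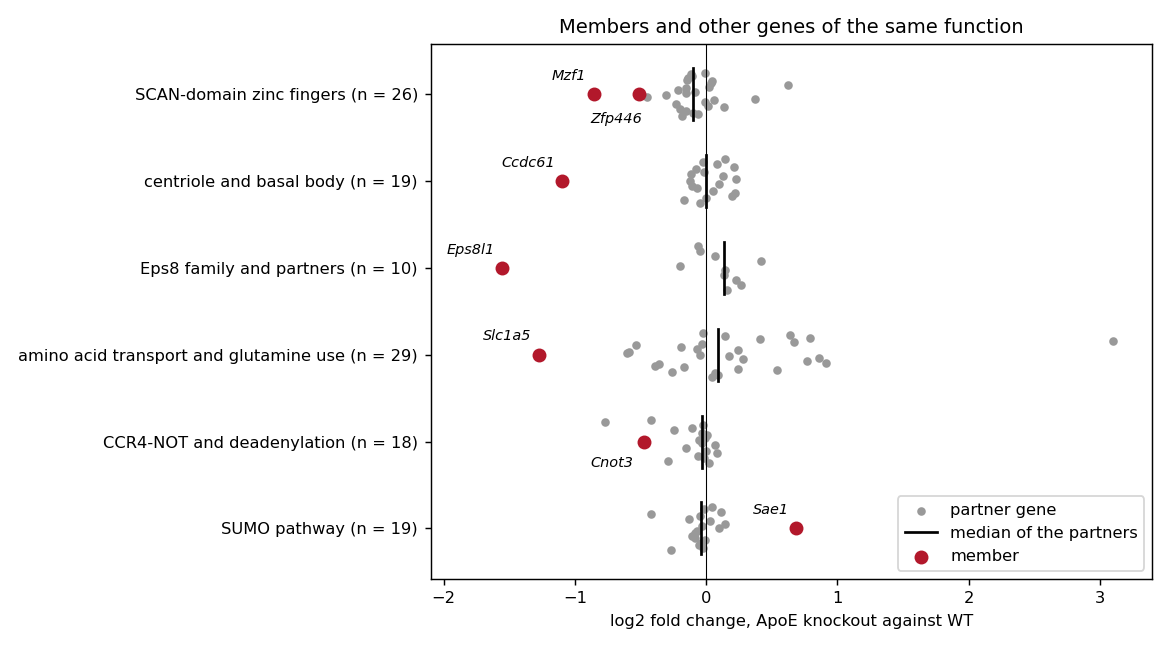
Log2 fold change (*ApoE-/-* against WT) of the genes in 6 of the 7 lists of related function (grey, with the list's median as a bar) and of the 7 members that belong to them (red). Each median lies between -0.10 and 0.14, and the point farthest to the right is *Slc7a11* at 3.10.

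Markers of the cell types that an aorta can hold are given beside these values, and their part in the differences of the 9 genes was not tested. The 8 smooth muscle markers summed to 4803 to 19605 CPM in *ApoE-/-* and 10671 to 20054 CPM in WT libraries. The lowest sum, at 4803 CPM, was that of *ApoE-/-* replicate 1. All 8 macrophage markers were higher in *ApoE-/-* aortas, with summed levels of 193 to 810 against 196 to 238 CPM. EdgeR called 2 of these 8, beside 0.464% of all genes, and called no gene at all without *ApoE-/-* replicate 3, WT replicate 2 or WT replicate 4. All 8 endothelial markers were lower, at 1544 to 2479 against 2205 to 2751 CPM, and all 7 fibroblast markers were higher, at 3610 to 9030 against 3321 to 3746 CPM. The sums that did not overlap were those of the 8 cardiac muscle markers, at 160 to 342 against 414 to 717 CPM, and of the 5 B cell markers, at 6.29 to 16.9 against 3.99 to 6.27 CPM. All 5 T cell markers tested were higher (5.77 to 11.4 against 4.71 to 7.11 CPM), skeletal muscle markers (11.98 to 27.4 against 15.7 to 29.2 CPM) were higher in 3 of 6, and nerve and glia markers ran from 46.4 to 3205 against 212 to 720 CPM, the highest sum being that of *ApoE-/-* replicate 1. No marker was at 0 in every library.

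Beside *Slc1a5*, all 6 adipocyte markers were lower in *ApoE-/-* aortas, with sums of 3142, 1668, 979 and 3876 CPM in *ApoE-/-* libraries 1 to 4 and 4153, 2116, 2328 and 5915 CPM in WT libraries 1 to 4. The pairing of this list with *Slc1a5* was not set in advance, and its part in the difference of *Slc1a5* was not tested. Unlike *Slc1a5*, the adipocyte sums of the genotypes overlapped, *ApoE-/-* replicates 1 and 4 being above WT replicates 2 and 3. Beside *Eps8l1*, the cardiac marker *Tnni3* (a gene chosen after its values were seen) lies 15.18 Mb from *Apoe* on the same side, and was at 7.10, 1.44, 1.61 and 1.39 CPM in *ApoE-/-* and 33.5, 10.1, 14.6 and 20.7 CPM in WT libraries. The part of cardiac muscle in the difference of *Eps8l1* was not tested.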

How the data were processed

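Stranded total RNA libraries, depleted of ribosomal RNA, were made from the aortas of 4 *ApoE-/-* and 4 WT mice, 1 library per mouse. The authors deposited raw counts of uniquely placed read pairs per gene, 1 table per library. Per the labels, the processing notes name TopHat2 and HTSeq on GRCm38/mm10, and tool versions and the annotation release are not given in the sources used here. Between 64.4% and 72.1% of pairs were assigned to no gene, including 0.85% to 1.32% that were ambiguous. These rows were left out of library sizes and tests.

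The counts were tested with edgeR 4.0.16 (R 4.3.3, filterByExpr with a minimum count of 10, TMM, robust glmQLFit and glmQLFTest, two-sided, Benjamini-Hochberg threshold 0.05) over 15077 genes. DESeq2 1.42.0, which the authors used for this contrast, was an alternative and tested 16789 genes. CPM values use TMM-scaled library sizes. SE values were derived from the edgeR fit, as the absolute log2 fold change divided by the square root of the F statistic. Positions of 21817 of 21859 identifiers were taken from GENCODE M21 (GRCm38), matched without version, and promoters from RefSeq. The start of a gene is its lowest coordinate on either strand, and distances between genes are between starts. The edgeR script was checked on simulated data.

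The members and all lists were chosen with earlier results of these data known, so no value of a member is used as a test. Named besides the members were *Apoe*, the nearest tested gene on either side of each member, overlapping genes, genes of the 20 Mb stretch that edgeR called and its 5 non-members with the smallest p, and of each list of related genes those called and the 2 with the smallest p. *Zfp940*, *Fxyd5*, *Inafm1*, *Relb*, *Slc7a7*, *Arhgap5*, *Gm9207* and *Tnni3*, the other *Eps8* genes, the listed genes within 20 Mb and the genes lying between members were named after their values were seen. *Zfp394* and *Zfp496* of the SCAN-domain list and 1 T cell marker matched no symbol. Of the genes and lists so named, 1 neighbouring gene and 1 list are not reported here.

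Replicate numbers came from the titles. Same-numbered libraries are different mice, and the correlations of their deviations from the group means (0.059, -0.448, 0.316 and 0.162) were not all over 0.1, so libraries were treated as unpaired. Alternatives were other scalings, filters and tests, a replicate block and leaving out each library in turn. DESeq2 with each library left out was added after seeing the data.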

Additional observations from a re-analysis of the deposited data

Results flagged for a closer look

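In *ApoE-/-* replicate 4, the total number of read pairs, 67231818, lay far from the other *ApoE-/-* libraries, which ran from 71334286 to 72143353. The gap to its nearest neighbour was 0.835 of the whole range of the group, above Dixon's 95% critical value for 4 libraries. It was the only group of values so marked among 26 tested, of which chance would give 1.3. No value of the 9 members in either genotype was marked.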

How the results depend on the processing

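Of 134 log2 fold changes of the 9 members under the alternatives, 133 moved by less than 1 SD of the libraries and none changed sign. The exception was *Gm45844* at -3.27 without *ApoE-/-* replicate 2, and *Gm45844* could not be fitted when at least 10 counts were asked of every library, because it was then filtered out. Ranges over the alternatives were -0.55 to -0.39 for *Cnot3*, -1.86 to -1.28 for *Eps8l1*, -3.27 to -2.68 for *Gm45844*, -0.57 to -0.46 for *Zfp446*, -0.93 to -0.75 for *Mzf1*, 0.61 to 0.74 for *Sae1*, 0.29 to 0.42 for *Arhgap35*, -1.38 to -1.18 for *Slc1a5* and -1.16 to -1.05 for *Ccdc61*.

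Calls depended strongly on the test and the libraries. Against 70 genes called by edgeR, 6 within 20 Mb of *Apoe*, 1 of the related genes and 3 of the members, DESeq2 called 721, 33, 6 and 9. The share of called genes that were higher was 80% with edgeR and 66.2% with DESeq2. The fit with a replicate block called 2, 1, 0 and 0, and a filter of at least 10 counts in every library called 0 of the related genes. Leaving out 1 library at a time, edgeR called 0 to 593 genes, 0 to 24 within 20 Mb, 0 to 2 related genes and 0 to 4 members, and 1269 to 2826 genes had an edgeR p under 0.05 before adjustment. The highest of each were without *ApoE-/-* replicate 1. Without *ApoE-/-* replicate 2 the only member called was *Gm45844*, and without any other 1 of the 6 remaining libraries no member was called. With 1 library left out, DESeq2 called 5 members without WT replicate 1, beside 2.79% of all genes. It called 8 without *ApoE-/-* replicate 1 (beside 9.19%) or 3 (beside 3.28%). The other settings lay between, and the share of all genes ran from 2.57% to 9.19%. *Gm45844*, *Mzf1*, *Sae1*, *Slc1a5* and *Ccdc61*, which were picked on this contrast, were called each time. The causes were not tested. Other scalings, no filter and fits without robust estimation gave 63 to 74 genes, and with either other scaling *Sae1* was called as well. Within 10 and 30 Mb of *Apoe*, 4 and 7 genes were called. The low counts of *Gm45844* in *ApoE-/-* libraries, at 9 to 25, and the 4 mice per genotype limit the precision.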

Other observations

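For each member, the 2 tested genes whose log2 CPM followed it most closely over the 8 libraries were found by Pearson's r, as a description without a test. The libraries share their genotype groups and depth, which both enter these values, and none of the 18 genes lies within 20 Mb of *Apoe*. *Slc1a5* was followed by *Clec9a*, a lectin of dendritic cells (r = 0.982), and *Lmo7* (0.981), and *Ccdc61* by *Corin*, the protease that activates atrial natriuretic peptide (0.983), and *Rbm3*, a cold-inducible RNA-binding protein (0.982). *Sae1* was followed by *Oas3*, an interferon-induced gene (0.982), and *Arl4c* (0.981), which had log2 fold changes of 2.24 and 1.41 beside 0.68 for *Sae1*. *Arhgap35* was followed by *Hmga1b* (0.977) and *Ncs1* (0.976), and *Gm45844* by *Pkmyt1* (0.987) and *Zfp949* (0.976). *Mzf1* was followed by *Rasip1* (0.991), an endothelial gene that also lies on chromosome 7 but outside the stretch, and *Spaar* (0.970). *Zfp446* was followed by *Fnbp1l* (0.985) and *Dido1* (0.975), *Eps8l1* by *Coq10b* (0.985) and *Ccdc85b* (0.971), and *Cnot3* by *Shank3* (0.969) and *Pan2* (0.965), the latter a deadenylase subunit that was also in the list of related genes set beside *Cnot3*.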
